A study of Mus musculus with 25 samples.

Results

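The genes described here are 38 transcription factor genes that direct cell fates other than skeletal muscle, taken from a hand-made list of regulators that was drawn up with earlier results of these data known. They were located by the curated RefSeq transcripts of the mouse assembly GRCm38 (mm10), and all 38 were found among the 26182 genes of that annotation. The list holds 10 genes of the neural and glial lineages, 2 of pluripotency, 7 of blood, 5 of endoderm, 5 of heart, 3 of bone and cartilage, 3 of fat, 1 of skin and 2 of mesenchyme and tendon.

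The study asked how the histone reader Spin1 acts in skeletal muscle, and the data used here are ChIP-seq peak lists from primary myoblasts. These cells were obtained by preplating from limb muscle of C57BL/6 mice (C57BL/6 N in the methods) at an age of 10 days and grown in culture, with no treatment or transgene named. Chromatin was precipitated with a custom antibody against Spin1 in 1 library and with an antibody against H3K4me3 in 1 library, and the peaks were called against input DNA. The sample title and the methods name H3K4me3, whereas the antibody label reads anti-H3K4me without the degree of methylation. Neither library was replicated, and how much cultures vary is unknown.

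Spin1 binds histone H3 that carries trimethylated lysine 4, a mark found around the transcription start sites (TSSs) of active genes and also of many silent genes with CpG-rich promoters. Genes for fate-determining transcription factors often have such CpG-rich promoters, and in cells of other lineages they are commonly held silent by Polycomb proteins, which place trimethylation on lysine 27 of histone H3. That mark was not measured here, so whether any promoter carried it was not tested.

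Occupied genes were those in which TSS±1 kb of at least 1 curated transcript shared 1 bp or more with a peak. The lists give each peak a start, an end and a score derived from its p-value against input. Scores accumulate at 3100, which 30.9% of the 17106 peaks of Spin1 and 45.2% of the 30763 peaks of H3K4me3 reached, so peaks at this score have no order. The depth of the libraries is unknown, because the lists hold no read counts. A promoter without a peak in these lists is therefore a promoter without a detected peak.

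To show what kinds of promoter are compared, 6 sequences are printed, which are the bases upstream of the TSS of the 2 genes with the widest H3K4me3 peak (Gata2 and Ebf1), of 2 genes with H3K4me3 but no Spin1 (Neurog1 and Neurog2) and of 2 genes with neither peak (Pou5f1 and Nanog). Each holds 250 bases from 5′ to 3′ on the strand of the gene, from the RefSeq promoter table of GRCm38.p6, in which 28 of the 38 genes have an entry. Olig1, Sox10, Spi1, Gata4, Tbx5, Hand1, Sox9, Sp7, Trp63 and Scx have none. Capitals mark every CG, the dinucleotide of which CpG islands are made. The positions are chr6:88198414-88198663 (plus strand) for Gata2, which lies in an intron of the longer Gata2 transcript, chr11:44617850-44618099 (plus) for Ebf1, chr13:56252181-56252430 (minus) for Neurog1, chr3:127632886-127633135 (plus) for Neurog2, chr17:35505782-35506031 (plus) for Pou5f1 and chr6:122707239-122707488 (plus) for Nanog.
Gata2: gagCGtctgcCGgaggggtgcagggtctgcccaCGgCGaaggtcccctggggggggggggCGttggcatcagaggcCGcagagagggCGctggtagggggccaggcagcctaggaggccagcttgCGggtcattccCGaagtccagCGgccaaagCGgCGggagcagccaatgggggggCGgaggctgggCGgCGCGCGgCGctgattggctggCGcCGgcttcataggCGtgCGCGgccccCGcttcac
Ebf1: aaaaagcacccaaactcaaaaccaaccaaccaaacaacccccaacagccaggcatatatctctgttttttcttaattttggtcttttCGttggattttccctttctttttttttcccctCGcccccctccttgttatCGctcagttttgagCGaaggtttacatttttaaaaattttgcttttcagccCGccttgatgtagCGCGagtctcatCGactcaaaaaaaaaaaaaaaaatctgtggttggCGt
Neurog1: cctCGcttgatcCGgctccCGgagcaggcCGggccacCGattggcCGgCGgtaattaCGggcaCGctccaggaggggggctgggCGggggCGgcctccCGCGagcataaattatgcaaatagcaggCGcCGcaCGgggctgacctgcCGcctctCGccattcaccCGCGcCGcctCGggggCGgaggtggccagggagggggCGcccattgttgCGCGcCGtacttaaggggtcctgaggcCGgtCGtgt
Neurog2: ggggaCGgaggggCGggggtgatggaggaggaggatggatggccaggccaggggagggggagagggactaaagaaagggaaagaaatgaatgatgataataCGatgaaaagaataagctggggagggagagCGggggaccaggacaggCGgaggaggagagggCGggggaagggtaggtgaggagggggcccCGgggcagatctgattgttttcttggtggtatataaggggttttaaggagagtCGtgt
Pou5f1: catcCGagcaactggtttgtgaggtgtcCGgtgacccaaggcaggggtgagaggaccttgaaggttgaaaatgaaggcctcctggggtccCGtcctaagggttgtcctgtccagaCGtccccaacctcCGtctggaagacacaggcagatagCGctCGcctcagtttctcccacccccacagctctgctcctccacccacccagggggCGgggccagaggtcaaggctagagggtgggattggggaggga
Nanog: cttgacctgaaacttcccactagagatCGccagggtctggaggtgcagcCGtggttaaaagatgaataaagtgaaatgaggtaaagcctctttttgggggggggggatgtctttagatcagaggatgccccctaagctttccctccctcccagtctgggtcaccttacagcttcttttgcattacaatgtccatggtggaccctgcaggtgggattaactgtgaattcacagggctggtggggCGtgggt

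The motif CG, which reads the same on either strand, occurred 24 times in the stretch of Gata2, 9 times in that of Ebf1, 29 times in that of Neurog1 and 8 times each in those of Neurog2 and Pou5f1, and 3 times in that of Nanog. The A- and T-rich stretch of Ebf1 had a GC content of 40%, against 74% for Gata2. Over all 32851 promoters of the table, the median was 6 CG in 250 bases, and 92.1% held at least 1. For 26 of the regulators the table has the TSS that represents the gene (the RefSeq Select transcript or, without one, the start of most curated transcripts). Their median was 17 CG, with 18.5 for the 12 of them with both peaks, 19.5 for the 10 with H3K4me3 only and 3 for the 4 with neither. In these bases the genes with H3K4me3 thus had similar numbers of CG with and without Spin1. Of the 4 genes with no peak, Pou5f1 had 8 and the others 2 to 4.

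Most of the regulators carried H3K4me3 in myoblasts, and fewer carried Spin1. An H3K4me3 peak lay at the promoter of 32 of the 38 genes (84.2%), against 61.9% of all genes. Spin1 was found at 18 (47.4%), against 50.7% of all genes, and each of these 18 also had H3K4me3, where 50.6% of all genes had both. Of the 21000 protein-coding genes alone, 68% had H3K4me3 and 56.7% had Spin1. When the peak had to hold the TSS, Spin1 was found at 13 of the 38 genes and at 48.4% of all genes, and with the 50% of peaks with the highest score at 10 of the 38 and at 38.1% of all genes.

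The regulators and all genes differed in the share with H3K4me3 and no Spin1 and in the share with neither peak. H3K4me3 without Spin1 was found at 14 regulators (36.8%), against 11.3% of all genes. Neither peak was found at 6 genes (15.8%), against 38% of all genes. Of the protein-coding genes, 11.3% had H3K4me3 without Spin1 and 32% had neither. Among the 32 genes with H3K4me3, 56.2% also had Spin1, whereas 81.7% of all genes and 83.3% of protein-coding genes with H3K4me3 did. An H3K4me3 score of 3100 was reached by 68.8% of these regulators and 88.3% of all genes with H3K4me3, and at this score the difference was smaller, with Spin1 at 77.3% of 22 regulators and 91% of 14307 genes. These counts describe a chosen list, and no test of the list against other genes was made.

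**Figure D1:**
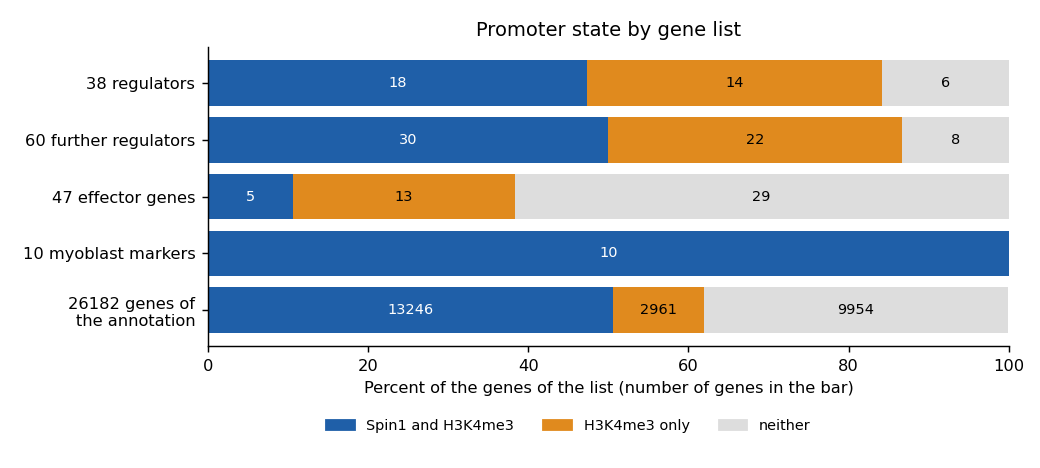
Share of genes with Spin1 and H3K4me3, with H3K4me3 only and with neither peak at the promoter (percent of the list, number of genes in each bar), for the 38 regulators, 60 further regulators, 47 effector genes, 10 myoblast markers and all 26182 genes. In the last bar, 21 genes with Spin1 only are not drawn. The part with H3K4me3 only is 36.8% for the 38 regulators and 11.3% for all genes.

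The cells carried the promoter marks of myoblasts. All 10 myoblast markers (Myod1, Myf5, Pax7, Des, Cdh15, Itga7, Vcam1, Ncam1, Myog and Msc) had both peaks, with a median H3K4me3 width of 5825 bp. Myod1, which can convert other cells to muscle, had an H3K4me3 peak of 6275 bp and a Spin1 peak of 4891 bp, both with a score of 3100. Myf5, its relative in muscle precursors, had 7449 bp of H3K4me3 and 1813 bp of Spin1 (score 1495), and Myog, which drives differentiation, had 3773 bp and 3621 bp (score 3100).

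Markers of other cells were mixed. None of 4 macrophage and leukocyte markers had Spin1, and the only H3K4me3 peak among them, at Cd68, had a width of 571 bp and a score of 51.8; Ptprc, Csf1r and Adgre1 had no peak. Of 4 endothelial markers, Cdh5, Kdr and Tek had H3K4me3 (median 1514 bp), Pecam1 had no peak, and none had Spin1. The 4 fibroblast markers all had H3K4me3, and 2 had Spin1. These were Pdgfra, with 11546 bp of H3K4me3 and 3000 bp of Spin1, and Col1a1, with 8411 bp and 1468 bp, whereas Thy1 and Tcf21 had 1970 bp and 573 bp of H3K4me3 and no Spin1. How far other cells in the cultures add to the peaks described below was not tested.

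Among the 10 neural and glial genes, all had H3K4me3 and 3 had Spin1 (Atoh1, Pax6 and Sox2). The proneural genes Neurog1, Neurog2 and Neurod1, which commit progenitors to the neuronal fate, had H3K4me3 peaks of 2032 bp (score 2432), 4114 bp (score 3100) and 1133 bp (score 212). The oligodendrocyte regulators Olig1 and Olig2, which are neighbors on chromosome 16, had 2546 bp and 3126 bp, both with a score of 3100. Sox1, a gene of neural progenitors, had 3543 bp with a score of 3100. A score of 3100 was thus found at 4 of these genes without any detected Spin1 at the promoter, a state shared by 1293 of the 2961 genes with H3K4me3 only in the whole annotation.

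Sox10, which specifies neural crest and glia, had an H3K4me3 peak of 3528 bp (score 1995) that began 27 bp upstream of the TSS and extended 3500 bp into the gene. A Spin1 peak of 695 bp with a score of 70.8 lay inside this H3K4me3 peak, 1563 bp downstream of the TSS and so outside the promoter window. With TSS±2 kb, Sox10 counted as occupied by Spin1. It was the only one of the 38 genes for which Spin1 was gained with this window.

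Where neural genes had Spin1, it was narrow or low in score. Atoh1, the proneural gene of hair cells and cerebellar granule neurons, had 3520 bp of H3K4me3 (chr6:64727265-64730784, score 3100) and a Spin1 peak of 751 bp (chr6:64727423-64728173, score 150.5), which ended 952 bp upstream of the TSS. This call was lost with TSS±0.5 kb, with the peak center in the window, with the TSS inside the peak and with the 50% of peaks with the highest score. Sox2, a gene of neural and pluripotent stem cells, had 4675 bp of H3K4me3 (chr3:34648301-34652975) and 3 short Spin1 peaks of 747, 737 and 740 bp with scores of 152, 191 and 172. The second of these held the TSS. The call at Sox2 was lost only when the 50% of peaks with the highest score were used.

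Pax6, a regulator of eye and forebrain, has 4 TSSs that span 13567 bp. Each had H3K4me3, in 3 separate peaks of 2065, 4527 and 2186 bp. The Spin1 peak, of 1337 bp with a score of 497 (chr2:105675799-105677135), overlapped the windows of the 2 middle TSSs, and none was found at the first or the last TSS. The Spin1 peak covered 15.2% of the summed H3K4me3 length, the lowest share among the 18 genes.

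The pluripotency factors Pou5f1 and Nanog, which keep embryonic stem cells undifferentiated, had no peak of either kind at any TSS. For Pou5f1 the nearest H3K4me3 peak lay 5176 bp downstream of a TSS, had a width of 5048 bp and a score of 3100, and lay within 1 kb of the TSSs of Tcf19 and Cchcr1. For Nanog the nearest lay 4029 bp upstream, outside the gene, with 1275 bp and a score of 437. The nearest Spin1 peaks were 6368 bp from Pou5f1 and 34171 bp from Nanog. Both promoters were poor in CpG, with observed/expected CpG ratios over TSS±0.5 kb of 0.333 and 0.326. Spi1, Gata1, Hnf4a and Hand1 shared this state and are described with their lineages.

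Of the 7 blood genes, 5 had H3K4me3 and 4 had Spin1. Gata2, a factor of blood stem cells and endothelium, had the widest H3K4me3 peak of all 38 genes, 9843 bp (chr6:88195783-88205625), wider than at 98.6% of all genes with H3K4me3. Its Spin1 peak had 4445 bp (chr6:88196470-88200914), and both had a score of 3100. These peaks lay at the TSS nearer to the coding exons. The other TSS, 4773 bp upstream and known for its use in blood progenitors, had a separate H3K4me3 peak of 2204 bp with a score of 3100 and no Spin1.

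Ebf1, which specifies B cells and is also active in fat precursors, had 8917 bp of H3K4me3 (chr11:44615848-44624764) and the widest Spin1 peak of the list, 6902 bp (chr11:44615878-44622779), wider than at 99.4% of all genes with Spin1. Spin1 covered 77.4% of the H3K4me3 peak, the highest share among the 18 genes. Gata3, a factor of T cells and of several epithelia, had 5683 bp (chr2:9875774-9881456) and 3714 bp (chr2:9876441-9880154, score 2393). Both genes thus had broad peaks of both kinds at their promoters.

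The other blood genes differed from these. Tal1, which starts the blood program, had 3123 bp of H3K4me3 (chr4:115055974-115059096, score 3100) and a Spin1 peak of 700 bp (chr4:115056584-115057283, score 169) that lay between its 2 TSSs and held neither. Pax5, the B-cell commitment factor, had 833 bp of H3K4me3 with a score of 103 over the TSS, a wider peak of 3389 bp (score 2061) that began 709 bp upstream, and no Spin1. Gata1, the erythroid factor, had no peak, and the nearest H3K4me3 peak, 19084 bp away, lay at the TSS of Hdac6. Spi1, the myeloid factor, had no peak at any of its 3 TSSs, and the nearest H3K4me3 peak lay 2984 bp upstream with 1290 bp and a score of 559. The blood genes thus held the widest peaks as well as genes without a peak.

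Of the 5 endodermal genes, 4 had H3K4me3 and 1 had Spin1. Foxa1, a pioneer factor of gut-derived organs, had 3123 bp of H3K4me3 (chr12:57544342-57547464, score 3100) and a Spin1 peak of 672 bp (chr12:57546361-57547032, score 106), the narrowest of the list, which ended 250 bp upstream of the TSS. Its relative Foxa2 had 2315 bp of H3K4me3 (score 2360.1) and a second peak of 607 bp (score 69.4), with no Spin1 at any of 3 TSSs.

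The other endodermal genes had little H3K4me3. The pancreatic factor Pdx1 had 754 bp (score 102) and the intestinal factor Cdx2 had 1560 bp (score 643), both without Spin1. Hnf4a, a regulator of liver and gut, had no peak at either of its 2 TSSs, which are 40298 bp apart, and the nearest H3K4me3 peak lay 11484 bp upstream of the second, inside the gene, with 900 bp and a score of 263. No endodermal gene had an H3K4me3 peak as wide as the median over all genes with H3K4me3, 3253 bp.

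Of the 5 heart genes, 4 had H3K4me3 and 2 had Spin1. Hand2, a gene of heart and limb bud, had 4924 bp of H3K4me3 (chr8:57319121-57324044, score 3100) and 2007 bp of Spin1 (chr8:57320758-57322764, score 725), a call lost only with the 50% of peaks with the highest score. The start of the noncoding gene Hand2os1 lies within 1 kb, so that these peaks cannot be assigned to either gene. Tbx5, a gene of heart and forelimb, had 3406 bp of H3K4me3 (chr5:119834654-119838059, score 1882) and 702 bp of Spin1 (chr5:119835223-119835924), whose score of 77.6 was the lowest of the list. This Spin1 call was lost with TSS±0.5 kb, with the TSS inside the peak, at a score of at least 100 and with the 50% of peaks with the highest score.

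Gata4 and Nkx2-5, core factors of heart muscle, had 2087 bp (score 3100) and 1374 bp (score 413) of H3K4me3 without Spin1. Hand1, the relative of Hand2 in the left ventricle and placenta, had no promoter peak, and the nearest H3K4me3 peak lay 1376 bp upstream with 676 bp and a score of 125. With TSS±2 kb, Hand1 counted among the genes with H3K4me3. The Hand genes thus differed from each other in these cells.

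All 3 genes of bone and cartilage had both peaks. Sox9, the cartilage factor, had 5808 bp of H3K4me3 (chr11:112780166-112785973) and 4005 bp of Spin1 (chr11:112780530-112784534), both with a score of 3100. Runx2, the factor of osteoblast commitment, has 4 TSSs in 2 groups, and its TSSs span 78621 bp. At the group nearer to the coding exons lay 7634 bp of H3K4me3 (chr17:44731637-44739270) and 5415 bp of Spin1 (chr17:44732777-44738191), both with a score of 3100. The distal group, which drives the isoform typical of bone, had 1562 bp of H3K4me3 (chr17:44813457-44815018, score 791) and no Spin1. Sp7, which acts after Runx2 in osteoblasts, had 2773 bp of H3K4me3 (chr15:102364735-102367507, score 3100) and 748 bp of Spin1 (chr15:102365568-102366315, score 135), which began 18 bp downstream of a TSS.

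All 3 genes of fat also had both peaks. Cebpa, which with Pparg drives fat cell differentiation, had 5640 bp of H3K4me3 (chr7:35117233-35122872) and 3933 bp of Spin1 (chr7:35117591-35121523), both with a score of 3100. Pparg has 4 TSSs over 61115 bp. The 3 upstream TSSs shared an H3K4me3 peak of 3368 bp (chr6:115360081-115363448, score 3100) and a Spin1 peak of 2084 bp (chr6:115360313-115362396, score 2257), and the downstream TSS, which drives the fat-specific isoform, had neither. Prdm16, a determinant of brown fat, had 4733 bp of H3K4me3 and 2 adjoining Spin1 peaks of 1623 bp (score 2012) and 1756 bp (score 1117), in a region where the starts of Prdm16os and 5930403L14Rik also lie within 1 kb.

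Trp63, the regulator of squamous epithelia such as epidermis, is the only skin gene. Its upstream TSS had an H3K4me3 peak of 591 bp that began 96 bp downstream, with a score of 66.5, the weakest H3K4me3 call of the list. This call was lost with the TSS inside the peak, at a score of at least 100 and with the 50% of peaks with the highest score. Its downstream TSS, 118151 bp away and used by the isoform of basal epidermal cells, had no peak, and no Spin1 was found at either.

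Both genes of mesenchyme and tendon had both peaks. Twist1, a factor of embryonic mesenchyme, had 5817 bp of H3K4me3 (chr12:33955678-33961494, score 3100) and 3330 bp of Spin1 (chr12:33956565-33959894, score 2918). Scx, the tendon factor, had 8767 bp (chr15:76455773-76464539, score 3100) and 2844 bp (chr15:76456901-76459744, score 2059). Spin1 covered 57.2% of the H3K4me3 peak at Twist1 and 48.0% at Scx. Bone and cartilage, fat, and mesenchyme and tendon were the lineages in which no gene of the 38 lacked Spin1. For bone and cartilage this includes the call at Sp7, which some alternatives removed.

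Multiple promoters of 1 gene thus differed in 5 of the 38 genes. In Pax6, Gata2 and Runx2, all TSSs had H3K4me3 and only some had Spin1. In Pparg, both marks were found at the same TSSs, and in Trp63 only 1 of 2 TSSs had H3K4me3. With 1 TSS per gene, the same 18 genes counted as occupied by Spin1 and the same 32 by H3K4me3.

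The 18 genes with Spin1 ranged widely in score, from 77.6 to 3100. A score of 200 was chosen to describe the lower end after the values had been seen, and only at Pax6 and Hand2 did the highest score of the gene lie between 191 and 2012. In 12 genes the highest Spin1 score was 497 or more, with a median Spin1 width of 3522 bp. In the other 6, which were Atoh1, Sox2, Tal1, Foxa1, Tbx5 and Sp7, it was 191 or less, with widths from 672 to 751 bp. As the limit lies in a gap between the scores of these genes, it was not used to compare them with all genes. The median score was 2035.8 for the 18 genes and 3003.5 for all genes with Spin1. In 5 of the 6 genes below this limit, all but Sox2, no Spin1 peak held a TSS. When the peak had to hold a TSS, 13 of the 18 genes kept the call, and 95.6% of all genes with Spin1 did.

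Spin1 peaks were wide where H3K4me3 peaks were wide. Among the 18 genes, Spearman's rho between the 2 widths was 0.87, against 0.80 over the 13246 genes with both peaks. This correlation is across genes of the same 2 libraries and describes them only. The 18 genes with both peaks had a median H3K4me3 width of 4828.5 bp (from 2773 to 9843 bp), and the 14 with H3K4me3 only had 2201 bp (from 591 to 4114 bp). Over all genes, the medians of these classes were 3558 bp and 1658 bp.

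**Figure D2:**
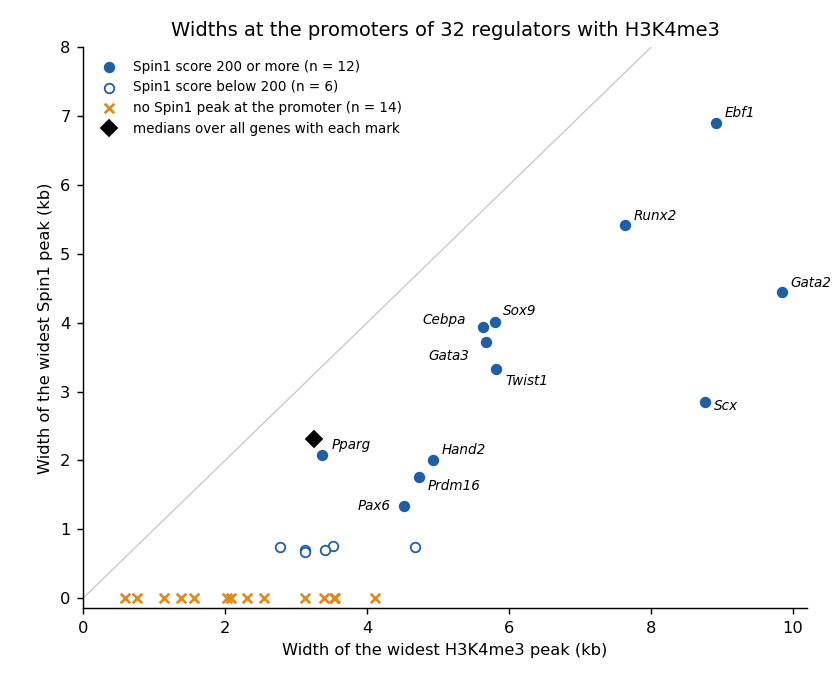
Width of the widest Spin1 peak against that of the widest H3K4me3 peak (kb) at the promoters of the 32 regulators with H3K4me3, with genes without Spin1 placed at 0, the medians over all genes as a diamond and the line of equal widths in gray. The 6 genes with a Spin1 score below 200 lie at 672 to 751 bp over H3K4me3 peaks of 2773 to 4675 bp, and every gene with at least 5 kb of H3K4me3 has more than 2 kb of Spin1.

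Width alone was not the same guide to Spin1 for the regulators as for all genes. With H3K4me3 peaks from 2 to 4 kb, 90.2% of 8289 genes had Spin1, and 6 of 14 regulators (42.9%) did. Of those with Spin1, the median Spin1 width was 1970 bp for all genes and 725 bp for the 6 regulators. With H3K4me3 peaks of 4 kb or more, 96.8% of 5228 genes and 12 of 13 regulators had Spin1. The exception was Neurog2. The regulators thus had fewer and narrower Spin1 peaks than all genes at intermediate H3K4me3 widths, and the classes hold few regulators. The H3K4me3 score was not matched in these classes. From 2 to 4 kb and without Spin1, Neurog1, Sox10, Pax5 and Foxa2 lay below a score of 3100, whereas Olig1, Olig2, Sox1 and Gata4 reached it. With Spin1, only Tbx5 lay below it. The Pax5 peak counted here began 709 bp upstream of the TSS.

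**Figure D3:**
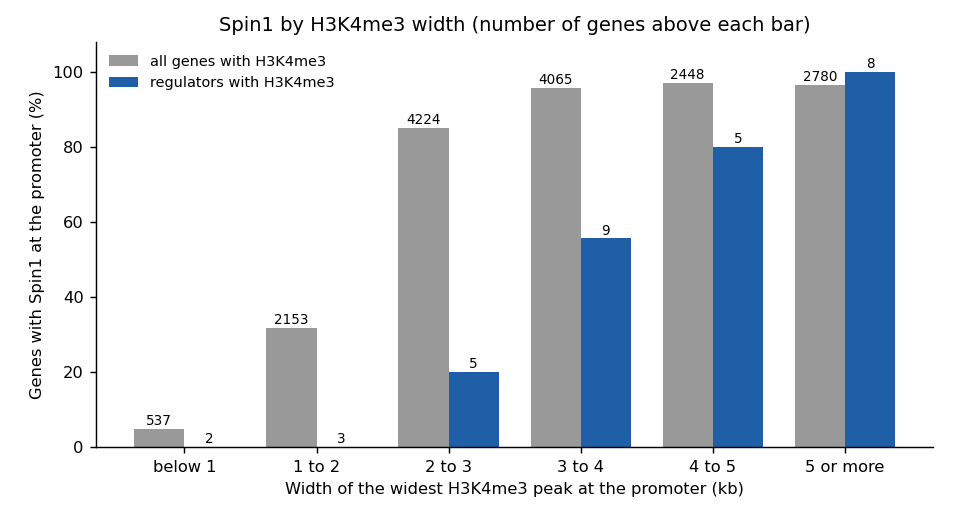
Percent of genes with Spin1 at the promoter by the width of the widest H3K4me3 peak (kb), for all genes with H3K4me3 (gray) and the regulators with H3K4me3 (blue), with the number of genes above each bar. From 2 to 3 kb the shares are 85% and 20%, from 3 to 4 kb 95.6% and 55.6%, and at 5 kb or more 96.5% and 100%.

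Promoters rich in CpG were found among regulators with and without Spin1. A promoter was taken as CpG-rich when the observed/expected CpG ratio was at least 0.6 and the GC content at least 50% over TSS±0.5 kb of the representative TSS. This held for 24 of the 38 genes (63.2%) and for 42.8% of all genes. All 24 had H3K4me3, as did 99.4% of all genes with CpG-rich promoters. Spin1, however, was found at 14 of the 24 (58.3%), against 90.3% of all genes with CpG-rich promoters. Of the 14 CpG-poor regulators, 4 had Spin1 (28.6%), against 21% of all genes with CpG-poor promoters. With a CpG-rich promoter and H3K4me3 from 2 to 4 kb, 92.8% of 6103 genes and 3 of 10 regulators had Spin1. These shares hold for the limits given above. With a ratio of at least 0.75 and a GC content of at least 55%, 10 regulators were CpG-rich. The share of all genes at that limit was not computed.

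The ratio had a median of 0.739 for the 18 genes with both peaks and of 0.705 for the 14 with H3K4me3 only. Over all genes of these classes the medians were 0.75 and 0.511. The 6 regulators with neither peak had ratios from 0.229 (Gata1) to 0.386 (Hand1), and none of them had a CpG-rich promoter. Among the 14 CpG-poor regulators, 4 had both peaks (Ebf1, Tbx5, Sp7 and Pparg) and 4 had H3K4me3 only (Sox10, Pdx1, Nkx2-5 and Trp63). Ebf1 combined a ratio of 0.989 with a GC content of 49.2% and so missed the GC limit. Other TSSs under the same peaks were CpG-rich in Ebf1 (ratio 0.65) and Pparg (0.947 and 0.825), and Tbx5 and Sp7 had no CpG-rich TSS.

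**Figure D4:**
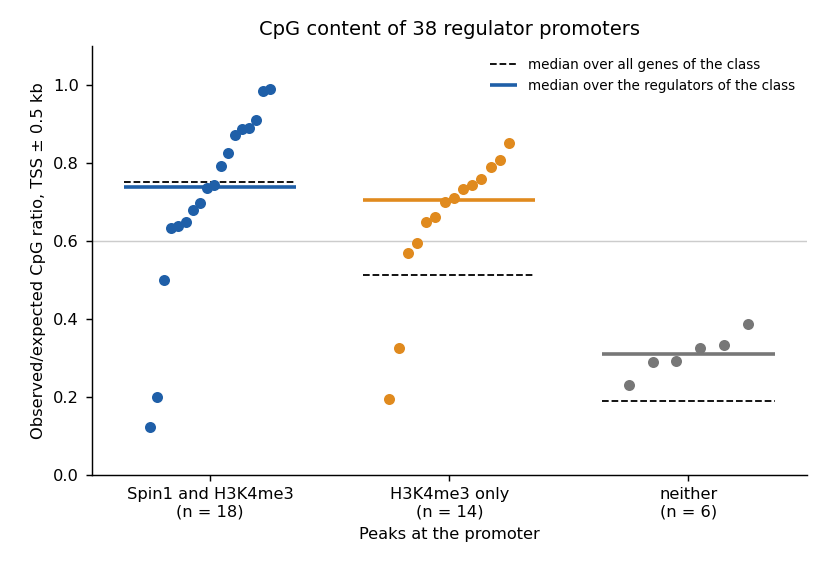
Observed/expected CpG ratio over TSS±0.5 kb of each of the 38 regulators (points, ordered by value), by the peaks at the promoter, with the median of the regulators (solid) and of all genes of the class (dashed); the gray line marks the ratio of 0.6. The medians of the first 2 classes are 0.739 and 0.705, and the 6 genes without a peak all lie below 0.4.

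Many of the regulators are short genes that lay largely under H3K4me3. The median gene length was 6051 bp, against 13451 bp over all genes. H3K4me3 peaks covered at least 50% of the gene in 15 of the 38 (39.5%), against 9.99% of all genes. In Sox2, Cebpa, Twist1 and Scx the whole gene was covered, and Spin1 covered the whole of Twist1 and Scx, 84.6% of Cebpa and 59.5% of Sox2. Of the 14 genes with H3K4me3 only, 7 (50%) were covered by H3K4me3 over 50% or more, against 13.7% of all genes of this class. The 7 included Olig1 (91.8%), Olig2 (82.1%), Neurog2 (81.8%) and Nkx2-5 (81.1%). Such coverage depends on gene length, since a short gene is covered by a peak of ordinary width.

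Further regulators of the same lineages, a list of 60 other genes drawn up with the same earlier results known, gave similar counts in total, with differences between lineages. H3K4me3 lay at 52 (86.7%), Spin1 and H3K4me3 at 30 (50%), H3K4me3 only at 22 (36.7%) and neither at 8. Among those with H3K4me3, 57.7% had Spin1. In the neural group of this list 7 of 15 genes had Spin1, among them Dlx2 with 4512 bp and a score of 3100. In the endodermal group 2 of 9 had Spin1 (Foxa3 and Gata6), and all 4 genes of fat (Cebpb, Cebpd, Ebf2 and Ppara) and all 4 of mesenchyme and tendon (Twist2, Mkx, Prrx1 and Snai2) had it. In both lists every gene of fat and of mesenchyme had Spin1 and few endodermal genes did. Of the 4 further genes of bone and cartilage, 3 had Spin1, with a median width of 1144 bp, and Dlx5 had H3K4me3 only, so that the state of all 3 bone genes described above did not recur in full. The share of neural genes with Spin1 was 30% in the first list and 46.7% in the second, and H3K4me3 lay at 10 of 10 and 11 of 15 of them. Pou5f1 and Nanog had no peak, but 4 of 5 further pluripotency genes had H3K4me3, and Klf4 had 5192 bp of Spin1 with a score of 3100. Of 4 further skin genes, 2 had Spin1.

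Differentiated genes of the same lineages had fewer peaks in total. Of 47 effector genes, 18 had H3K4me3 (38.3%), 5 had Spin1 (10.6%), 13 had H3K4me3 only (27.7%) and 29 had neither (61.7%). Over all genes these shares were 61.9%, 50.7%, 11.3% and 38%. Among the 18 effectors with H3K4me3, 27.8% had Spin1, against 56.2% of such regulators and 81.7% of all such genes. A low share with Spin1 was thus not particular to the regulators. None of the 5 endodermal effectors (Alb, Afp, Ttr, Ins2 and Vil1) had a peak, whereas 4 of the 5 endodermal regulators had H3K4me3. In blood, H3K4me3 lay at 1 of 7 effectors and 5 of 7 regulators, and in heart at 1 of 5 and 4 of 5. The counts were 3 of 5 and 3 of 3 in bone, and 2 of 5 and 3 of 3 in fat. Skin had H3K4me3 at 1 of 5 effectors and at its 1 regulator, Trp63, whose weak call was lost under some alternatives. Mesenchyme had it at 3 of 4 effectors and 2 of 2 regulators. No effector of bone or fat had Spin1, whereas 2 of 4 of mesenchyme did. Each lineage holds few genes, and these differences were not tested. The neural lists were close in Spin1, with 28.6% of effectors and 30% of regulators, and H3K4me3 lay at 5 of 7 neural effectors. Among pluripotency effectors, 2 of 4 had H3K4me3, against neither of the 2 regulators. The lists overlap with the markers above, since Col1a1, Pdgfra and Thy1 are also fibroblast markers, Ptprc, Csf1r and Adgre1 also leukocyte markers, and Tcf21 is both a fibroblast marker and a further regulator. CpG-rich promoters made up 12.8% of the effectors and 63.2% of the regulators, so the lists differ in base composition as well as in function, and the part of either was not tested.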

How the data were processed

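Paired-end reads of the Spin1 and the H3K4me3 library were aligned by the authors to mm10 with Bowtie2, and peaks were called with MACS 1.4.2 against input; those above a false discovery rate of 1% were removed. The deposited score is the negative log10 of the p-value multiplied by 10. It rises with depth and width, so that scores were compared within 1 list only. The series has 25 samples, of which input and RNA-seq were left out.

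TSSs were taken from 45756 curated transcripts of RefSeq annotation release 108.20200622 (26182 genes, 21000 protein-coding). The width of a gene is that of its widest promoter peak. The members and lists were chosen with earlier results of these data known. Genes described in full were those with a Spin1 call that an alternative removes, the 8 with the widest H3K4me3, those with promoters of unequal state and those without H3K4me3. Except for the 2 widest, sequences followed the order of the list. For Nanog the upstream TSS was shown, since the other stretch reaches an exon.

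Alternatives were other windows (TSS±0.5 kb and TSS±2 kb), overlap rules, score limits (at least 100, or the 50% of peaks with the highest score), 1 TSS per gene, summed widths and other CpG limits. Calling and base counting were tested on simulated data. The tools were pandas 2.3.3, NumPy 2.4.6, Python 3.11.15, matplotlib 3.10.9, pysam 0.24.0, SciPy 1.17.1 and samtools 1.23.1.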

Additional observations from a re-analysis of the deposited data

How the results depend on the processing

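Of 45 values recomputed under the alternatives, 41 stayed within bounds, which were 1.5 times for a count and the 95% order-statistic interval for a median. With the 50% of peaks with the highest score, the regulators with Spin1 fell from 18 to 10, those with both peaks likewise to 10, and those with neither rose from 6 to 11, as fewer peaks enter. Over all genes, the share with Spin1 fell from 50.7% to 38.1%, and that with neither rose from 38% to 43.4%. The 8 genes that lost Spin1 were Atoh1, Pax6, Sox2, Tal1, Foxa1, Tbx5, Hand2 and Sp7. The share of genes with H3K4me3 that also had Spin1 was then 37.0% for the regulators and 67.3% for all genes. When the peak had to hold the TSS, 13 regulators had Spin1, and these shares were 41.9% and 80.7%. The regulators with H3K4me3 ranged from 27 to 33 and those with H3K4me3 only from 14 to 18. Over all genes, the share with H3K4me3 ranged from 50.5% to 63% and that with H3K4me3 only from 10.6% to 18.5%. A CpG ratio of at least 0.75 with a GC content of at least 55% left 10 CpG-rich regulators in place of 24. The share of all genes at this limit was not computed. The median widths of 3463 bp for H3K4me3 (interval 2773 to 4733 bp) and 2045.5 bp for Spin1 (748 to 3933 bp) ranged from 3406 to 3543 bp and from 2007 to 3823.5 bp. No paired analysis was possible because each antibody gave 1 library and no test between groups was made. Weak peaks are limited by the unknown depth.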

Other observations

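Around the regulators, H3K4me3 peaks were more numerous than around all genes, with a median of 3 within 20 kb of the TSS against 1, and the median number of Spin1 peaks was 1 in each case. The difference was smaller among genes with H3K4me3 at the promoter. There the median number of H3K4me3 peaks was 3 for the regulators and 2 for all genes, with Spin1 and without it. Over all 60 further regulators, with or without a promoter peak, the median number of H3K4me3 peaks was 2. Pax6 had 8 H3K4me3 peaks in this range and 1 Spin1 peak. Sp7, whose own promoter had only a short Spin1 peak, had 7 H3K4me3 peaks and 8 Spin1 peaks in the range, the most Spin1 peaks of the 38 genes. The nearest Spin1 peak lay 420274 bp from the representative TSS of Trp63, the longest such distance of the list, followed by Foxa2 with 151241 bp and Olig2 with 146466 bp. These genes were singled out after their values had been seen.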
